A study of Mus musculus with 26 samples.

Results

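The killer lectin-like receptors are C-type lectin-like proteins on natural killer (NK) cells and some T and myeloid cells. All genes whose mouse symbol starts with Klr and a lower-case letter were taken, without the symbols that end in -ps, which gave 26 of the 55416 genes counted. They comprise 9 genes usually classed as activating receptors (Klra4, Klra8, Klrb1a, Klrb1c, Klrb1f, Klrc2, Klrc3, Klri2 and Klrk1) and 14 classed as inhibitory. A further 2, Klrd1 and Klre1, pair with other members, and Klrg2 was put in neither class. The RNA came from C57BL/6 mice that carried lung metastases of B16F10, a mouse melanoma line injected intravenously. One arm was given propranolol, which blocks β-adrenoceptors, and the control arm was left untreated, and every group in both arms carried the tumour. Whole lung gave 5 propranolol and 5 control libraries, monocytes sorted from lung gave 4 and 4, and CD4 T cells taken from lung with magnetic beads gave 4 and 4. The sources used here give neither dose nor age nor sex, and no group without tumour was analysed here.

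These receptors set the balance by which an NK cell spares or attacks a target. Inhibitory members of the Klra group (the Ly49 receptors) and the CD94-NKG2A pair, made of Klrd1 and Klrc1, read MHC class I on healthy cells and carry an inhibitory motif in their tails. Activating members have no such motif and signal through small adaptors, chiefly DAP12 (Tyrobp) and DAP10 (Hcst). In lungs seeded with B16F10 cells, NK cells are known as a main brake on metastasis.

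Totals per library were 29650148 to 43447855 counts in propranolol lungs and 33232082 to 47618634 in control lungs. They were 36277687 to 46407803 and 36371431 to 48306925 in propranolol and control monocyte libraries, and 27742422 to 42484125 and 17625672 to 35600275 in propranolol and control CD4 T cell libraries. Cd4 averaged 524 ± 61.5 CPM (SD, n = 4) in the propranolol CD4 T cell libraries and 564 ± 4.49 CPM (SD, n = 4) in their controls, so the label fits this marker. The libraries labelled monocytes held Csf1r, the receptor that marks monocytes and macrophages, at 586 ± 85.9 and 466 ± 59.4 CPM with propranolol and without (SD, n = 4 each). They also held 7 alveolar type 2 cell markers that summed to 3743 to 4129 CPM with propranolol and 4350 to 4446 CPM in controls, and 10 endothelial markers that summed to 4972 to 5114 CPM with propranolol and 6753 to 7162 CPM in controls. Markers of T cells summed to 180 to 656 CPM in the propranolol monocyte libraries and to 77.5 to 339 CPM in the control ones, so members found there need not come from monocytes. Whether each library is a separate mouse is not stated in the labels, and p-values therefore reflect only how far libraries of a group differ, which may be technical.

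Among themselves the members differed widely in level. Levels of different genes are set side by side here per kilobase of exon, as plain CPM per kb with the exon lengths of GENCODE M21. Plain CPM lacks the scaling between libraries used in the tests below, so changes between the arms are not to be read from it. Klra2, which encodes the inhibitory receptor Ly49B known from myeloid cells, ranked first in whole lung, with 6.44 CPM per kb in propranolol lungs and 1.72 CPM per kb in controls. It also ranked first in the monocyte libraries, at 19.7 CPM per kb with propranolol and 12.2 CPM per kb in controls. Klrd1, which encodes CD94, ranked first in the CD4 T cell libraries, at 14.9 CPM per kb with propranolol and 19.2 CPM per kb in controls. Klrc1, the NKG2A chain of the inhibitory pair, followed at 11.9 CPM per kb in propranolol CD4 T cell libraries, whereas Klrb1c, which encodes NK1.1, was second in their controls at 9.67 CPM per kb. At the low end, Klrb1 averaged at most 0.473 CPM per kb in any group. It had 0 counts in all 4 control monocyte libraries, and 3 counts, taken as the limit that a count of 0 allows, would have been 0.0621 to 0.0825 CPM there.

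**Figure D1:**
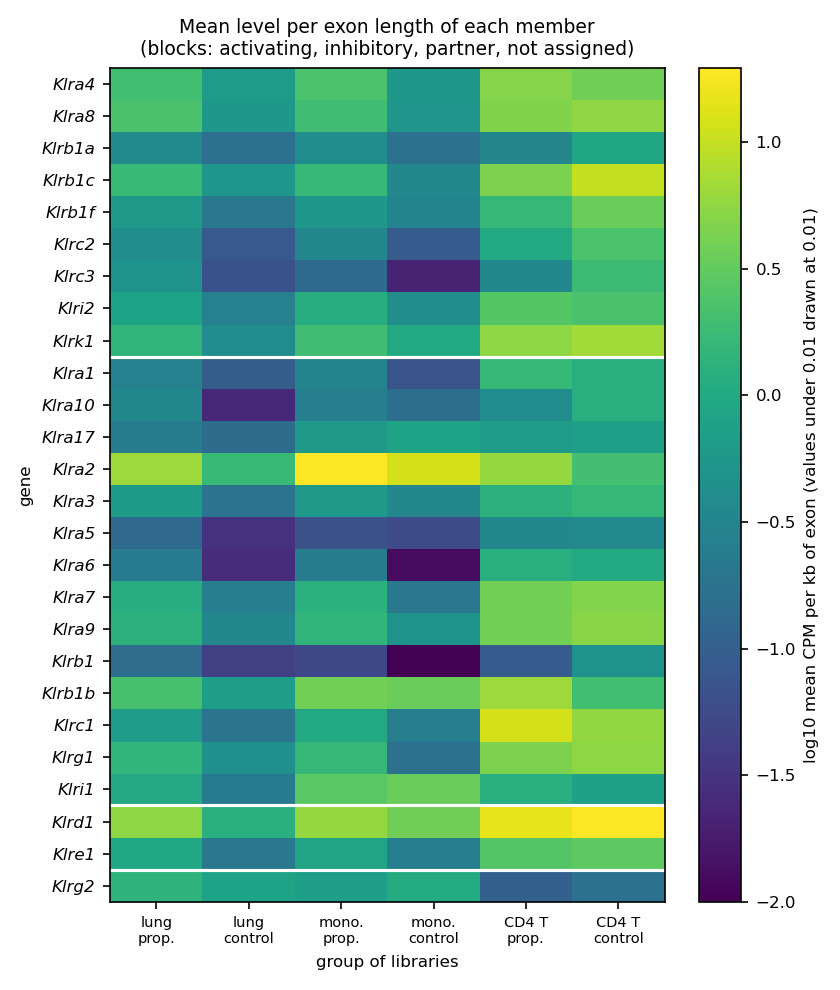
Mean level of each member per kilobase of exon, as plain CPM per kb on a log10 colour scale, in the 6 groups of libraries (columns; prop., propranolol). Rows are blocked into activating, inhibitory, partner and unassigned genes. Klra2 is the brightest row in the lung and monocyte columns and Klrd1 in the CD4 T cell columns. CD4 T cell libraries come from a separate table, so material and table cannot be told apart in these levels.

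In control monocyte libraries Klra2, Klrb1b, Klri1 and Klra17 had the highest mean levels of the inhibitory members. There Klri1 stood at 3.45 CPM per kb, Klrb1b at 3.52 CPM per kb and Klra17, the Ly49Q gene known from plasmacytoid dendritic and myeloid cells, at 0.826 CPM per kb. This order did not hold elsewhere, as in propranolol monocyte libraries Klra17, at 0.595 CPM per kb, was below Klrg1, Klra9, Klra7 and Klrc1. In control lungs Klri1 (0.229 CPM per kb) and Klra17 (0.147 CPM per kb) were below Klrg1, Klra9 and Klra7, and Klrb1b stood at 0.707 CPM per kb. Klrg1, an inhibitory receptor for cadherins on effector lymphocytes, went the other way, at 0.174 CPM per kb in control monocyte libraries, against 0.455 CPM per kb in control lungs.

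Several members share sequence, which limits how well a count can be assigned to one of them. The highest share of 50-base stretches found also in another gene was 39.8% for Klra10, followed by 38.6% for Klrc1 and 36.3% for Klrc3, while 10 of the 26 members had less than 1%. Klrc1 shared most with Klrc2, and Klra10 and Klra3 shared most with Klra9. The sources used here do not say how reads that match several genes were counted. Exons of Klrb1b (26.9% of bases) and of Klrb1c (13.9%) overlap Gm44511 on the same strand in GENCODE M21, and Gm44511 had 0 counts in all 26 libraries.

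Propranolol lungs held more RNA of nearly the whole family, and the activating and inhibitory members moved together. All 20 members with enough counts for the test were higher, which comprised 8 activating, 9 inhibitory, both partner genes and Klrg2. When libraries were scaled on NK cell markers, only Klrc2 and Klrd1 stayed called higher, and Klrb1a, Klrb1f, Klra1 and Klrg2 turned to negative values. The median log2 change of the 20 members with TMM scaling was 1.60, against 0.03 over all 18639 genes tested, of which 35.5% were called higher, 35.3% lower and 70.8% in either direction. The other 6 members (Klrb1, Klrc3, Klra5, Klra6, Klra10 and Klra17) had too few counts. Of the 20, 17 had every propranolol lung above every control lung, whereas this held for 23.6% of all genes tested, and the reverse for 28.9%. In bulk RNA, more cells of a type and more RNA per cell cannot be told apart.

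**Figure D2:**
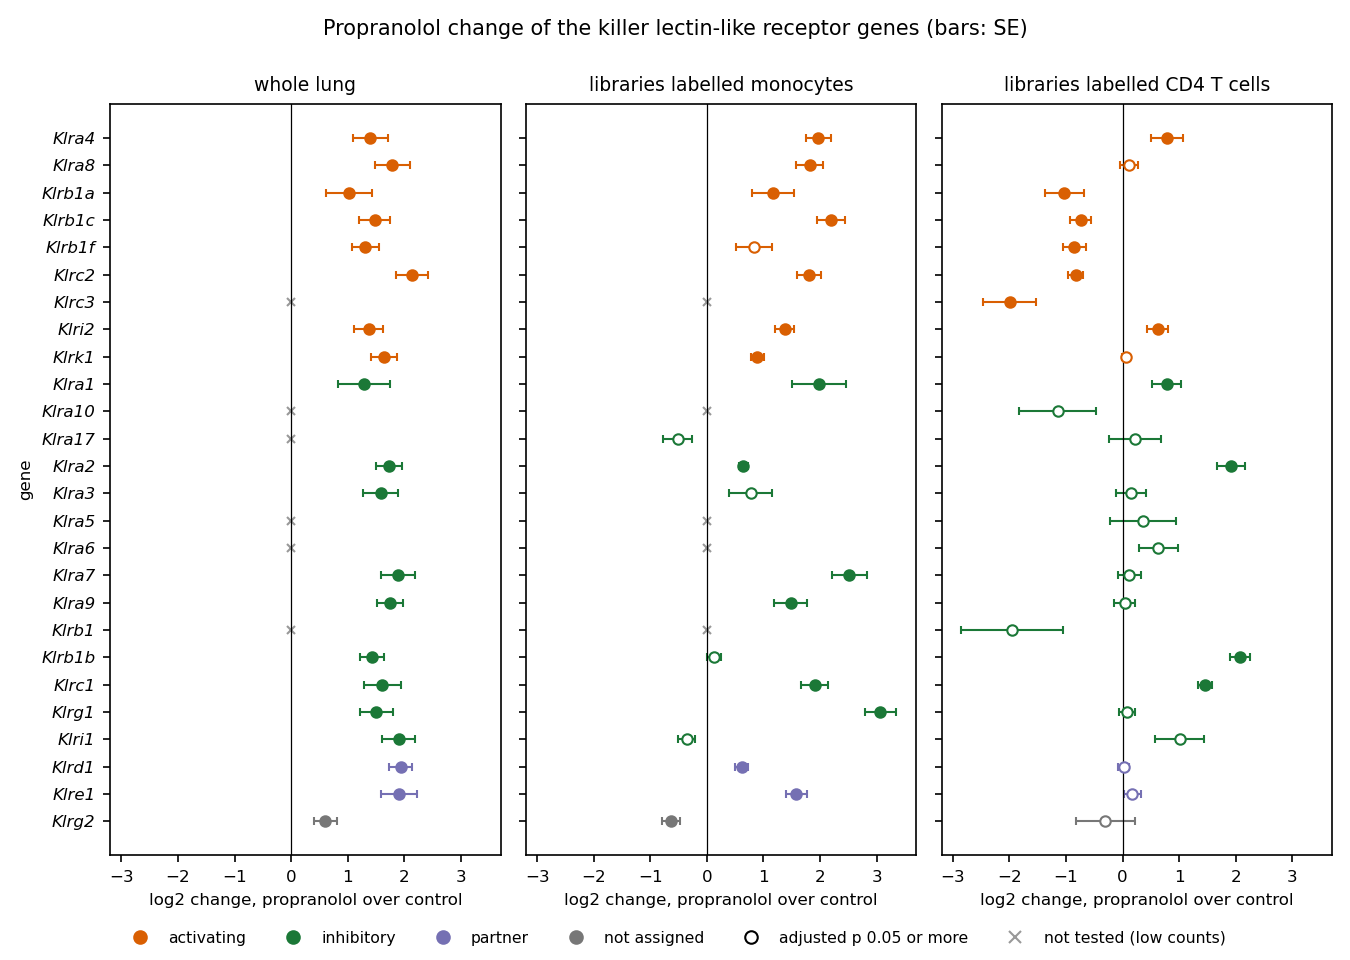
Log2 change, propranolol over control, of each member in whole lung, in libraries labelled monocytes and in libraries labelled CD4 T cells, with SE bars. Filled points have an adjusted p under 0.05 in edgeR's quasi-likelihood test, open points do not, and crosses mark members not tested. With this TMM scaling all 20 lung points lie right of 0. Under NK marker scaling only Klrc2 and Klrd1 stay called higher in lung, and Klrb1a, Klrb1f, Klra1 and Klrg2 turn. In CD4 T cell libraries the 5 filled points left of 0 are all activating genes.

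Of the activating members in lung, Klrk1 encodes NKG2D, the receptor for stress-induced ligands. Klrk1 had 9.11, 12.2, 11.0, 9.30 and 6.14 CPM in propranolol lungs, against 2.67, 1.92, 3.19, 4.04 and 3.47 CPM in control lungs, where CPM here and in the following are scaled by TMM within a kind of material. No propranolol lung fell within the control range, and the log2 change was 1.64 ± 0.23 (SE, adjusted p = 0.000178). Klrc2, the activating NKG2C chain that pairs with CD94, had 2.52, 3.13, 2.33, 1.91 and 1.46 CPM in propranolol lungs, against 0.517, 0.326, 0.514, 0.421 and 0.771 CPM in control lungs. Its lowest propranolol lung was above its highest control lung, and the log2 change was 2.14 ± 0.28 (SE, adjusted p = 0.000146), the highest of the family. Klrb1c had 5.81, 6.43, 3.75, 4.15 and 3.33 CPM in propranolol lungs, against 1.18, 1.27, 2.49, 1.24 and 2.22 CPM in control lungs. Again the groups were apart, and the log2 change was 1.48 ± 0.28 (SE, adjusted p = 0.000845).

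The activating Ly49 genes behaved alike in lung. Klra4, which encodes Ly49D, had 1.90, 4.02, 1.81, 2.0 and 1.84 CPM in propranolol lungs, against 0.890, 0.489, 1.27, 0.798 and 0.891 CPM in control lungs. Propranolol lung 2 stood well above the other 4, and the log2 change was 1.40 ± 0.30 (SE, adjusted p = 0.00191). Klra8, which encodes Ly49H, known as a receptor for a protein of mouse cytomegalovirus, had 2.08, 3.77, 2.33, 2.40 and 1.79 CPM in propranolol lungs, against 0.545, 0.652, 1.05, 0.377 and 0.939 CPM in control lungs. The groups were apart, and the log2 change was 1.79 ± 0.31 (SE, adjusted p = 0.000495). Klri2, the activating partner of Klre1, had 2.80, 4.72, 2.96, 2.35 and 2.20 CPM in propranolol lungs, against 0.890, 0.880, 1.49, 1.29 and 1.23 CPM in control lungs. Its groups did not overlap, and the log2 change was 1.37 ± 0.25 (SE, adjusted p = 0.000731). Klrb1f was low, with means of 1.12 ± 0.21 CPM in propranolol and 0.452 ± 0.116 CPM in control lungs (SD, n = 5 each), and the log2 change was 1.31 ± 0.24 (SE, adjusted p = 0.000752). Klrb1a was lower still, at 0.548 ± 0.153 CPM and 0.268 ± 0.153 CPM in propranolol and control lungs (SD, n = 5 each), with groups that overlapped. For Klrb1a the log2 change was 1.03 ± 0.41 (SE, adjusted p = 0.0411), and the call was lost in 7 of the 10 fits that left out 1 library, where the highest adjusted p was 0.103.

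Of the inhibitory members in lung, Klra2 had 10.5, 15.2, 12.8, 10.7 and 8.19 CPM in propranolol lungs, against 2.33, 3.0, 5.22, 3.81 and 2.94 CPM in control lungs. The groups were apart, and the log2 change was 1.73 ± 0.23 (SE, adjusted p = 0.000158). Klrc1 had 0.933, 1.33, 1.60, 1.47 and 0.661 CPM in propranolol lungs, against 0.344, 0.261, 0.297, 0.643 and 0.385 CPM in control lungs. The lowest propranolol value was just above the highest control value, and the log2 change was 1.61 ± 0.33 (SE, adjusted p = 0.00128). Klrb1b, an inhibitory receptor for the protein of Clec2d, had 4.45, 3.99, 5.63, 5.01 and 3.52 CPM in propranolol lungs, against 1.41, 1.5, 1.95, 1.24 and 2.29 CPM in control lungs. Each propranolol lung exceeded each control lung, and the log2 change was 1.43 ± 0.21 (SE, adjusted p = 0.000216). Klrg1 had 2.05, 1.71, 2.52, 2.22 and 1.30 CPM in propranolol lungs, against 0.344, 0.620, 0.595, 0.798 and 1.06 CPM in control lungs. The ranges were again separate, and the log2 change was 1.51 ± 0.29 (SE, adjusted p = 0.00101).

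The inhibitory Ly49 receptors for MHC class I, Klra7 (Ly49G), Klra9 (Ly49I), Klra3 (Ly49C) and Klra1 (Ly49A), were all higher in propranolol lungs. Klra9 had 1.43, 1.65, 2.09, 1.69 and 1.11 CPM in propranolol lungs, against 0.488, 0.359, 0.595, 0.510 and 0.409 CPM in control lungs. Its groups did not overlap, and the log2 change was 1.75 ± 0.23 (SE, adjusted p = 0.000157). Klra3 had 0.560, 1.17, 0.755, 0.659 and 0.496 CPM in propranolol lungs, against 0.172, 0.163, 0.270, 0.310 and 0.265 CPM in control lungs. Its groups were apart at a low level, and the log2 change was 1.58 ± 0.31 (SE, adjusted p = 0.0011). Klra7 averaged 1.32 ± 0.31 CPM in propranolol and 0.352 ± 0.133 CPM in control lungs (SD, n = 5 each), and the log2 change was 1.89 ± 0.30 (SE, adjusted p = 0.000333). Klra1 averaged 0.458 ± 0.179 CPM and 0.177 ± 0.120 CPM in propranolol and control lungs (SD, n = 5 each), with overlapping groups. For Klra1 the log2 change was 1.28 ± 0.46 (SE, adjusted p = 0.0268), and 4 of the 10 fits that left out 1 library lost the call, with adjusted p up to 0.0706. Klri1, the inhibitory partner of Klre1, averaged 0.774 ± 0.211 CPM in propranolol and 0.206 ± 0.060 CPM in control lungs (SD, n = 5 each), and the log2 change was 1.90 ± 0.29 (SE, adjusted p = 0.000299).

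Both partner genes rose with them. Klrd1 had 5.78, 7.06, 7.75, 7.19 and 4.58 CPM in propranolol lungs, against 1.32, 1.79, 1.97, 1.33 and 2.05 CPM in control lungs. The groups were far apart, and the log2 change was 1.93 ± 0.20 (SE, adjusted p = 6.92e-05). Klre1 had 2.08, 3.96, 3.93, 2.77 and 2.10 CPM in propranolol lungs, against 0.459, 0.554, 1.05, 1.24 and 0.602 CPM in control lungs. There was no overlap, and the log2 change was 1.91 ± 0.32 (SE, adjusted p = 0.000464). Klrg2 was the exception in size, at 4.46 ± 1.04 CPM in propranolol and 2.94 ± 0.54 CPM in control lungs (SD, n = 5 each), with groups that overlapped. For Klrg2 the log2 change was 0.60 ± 0.20 (SE, adjusted p = 0.0199), and the call was lost without control lung 5 or propranolol lung 3, with adjusted p up to 0.0539.

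Markers of NK cells moved with the family in lung. Of 15 NK cell markers that are no members, 14 were higher in propranolol lungs, with a median log2 change of 1.45, and they summed to 120 to 208 CPM in propranolol and 46.1 to 85.5 CPM in control lungs. Of all genes tested in lung, 35.5% were called higher. Ncr1, which encodes the NK cell receptor NKp46, averaged 5.37 CPM in propranolol and 1.48 CPM in control lungs, and the log2 change was 1.86 ± 0.18 (SE, adjusted p = 6.33e-05). All 10 T cell markers were higher as well, and all 10 melanocyte markers were lower, at summed levels of 1153 to 10774 CPM in propranolol and 18077 to 29258 CPM in control lungs. With libraries scaled on the NK cell markers, 2 members stayed higher (Klrc2, log2 change 0.78, and Klrd1, 0.56), Klrg2 was lower (−0.82) and the other 17 were not called. That scaling called 459 of all 18639 genes tested higher and 13955 lower, and moved their median to −1.34. With the mean level of the melanocyte markers as a covariate, 4 members were called, all higher (Klrd1, Klrk1, Klrc2 and Klra2). Over all genes that fit called 970 higher and 1020 lower. The summed melanocyte markers did not overlap between the arms, so that fit cannot cleanly separate treatment from melanocyte level. With libraries scaled on resident lung cell markers, 16 members were higher and 0 lower, against 1792 and 10827 of all genes. The median of all tested genes then moved to −0.73.

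**Figure D3:**
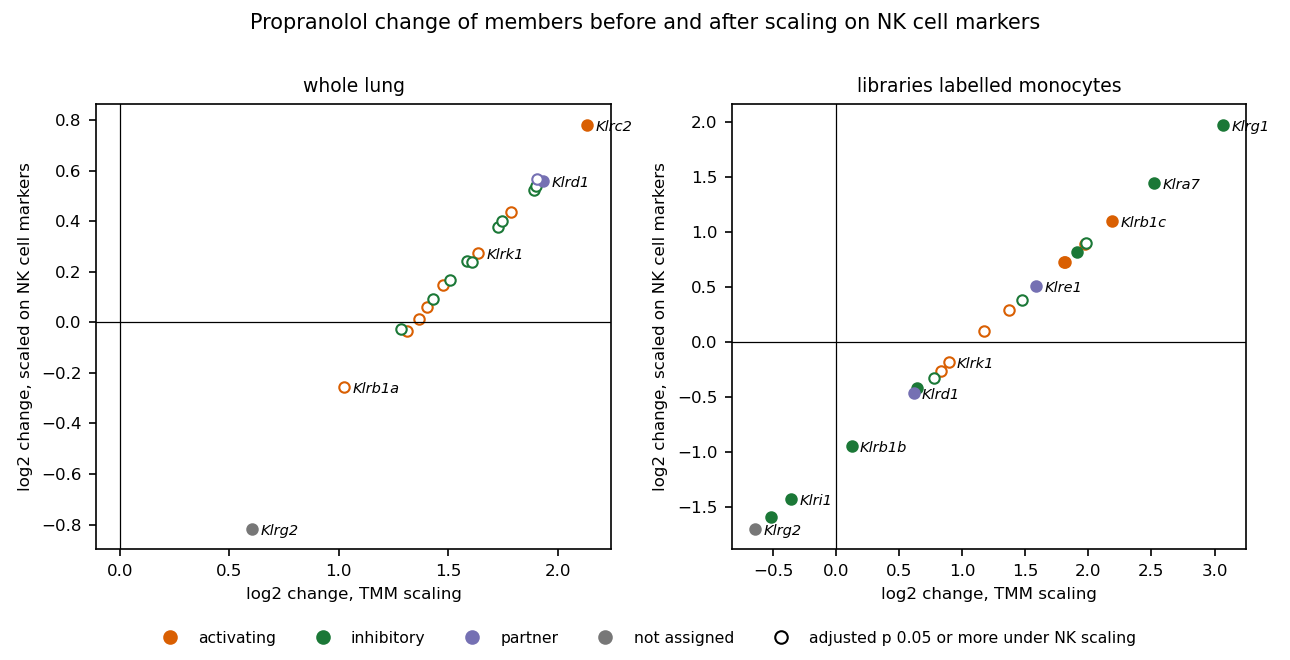
Log2 change of each tested member with TMM scaling (x axis) and with libraries scaled on the summed counts of 15 NK cell markers (y axis), in whole lung and in libraries labelled monocytes. Filled points have an adjusted p under 0.05 under NK marker scaling. In lung the points collapse towards 0 on the y axis, and in the monocyte libraries they spread from −1.70 (Klrg2) to 1.98 (Klrg1).

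In the libraries labelled monocytes the family was also mostly higher with propranolol under TMM scaling (Klrd1, Klrk1, Klra2, Klra3, Klrb1b and Klrb1f turned negative under NK marker scaling). Of 21 members tested, 15 were higher, 1 (Klrg2) was lower and 5 (Klrb1b, Klri1, Klra17, Klrb1f and Klra3) were not called. All genes tested in this comparison were called higher in 14.3% and called in either direction in 30.5%, and the median log2 change was 1.37 over the members and 0.02 over all 18236 genes. By class, 7 of 8 tested activating members, 6 of 10 tested inhibitory members and both partners were higher. Every propranolol library was above every control library for 14 members, against 14.9% of all genes tested.

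The largest log2 changes in these libraries were those of Klrg1, Klra7, Klrb1c and Klra1. Of other members low in control monocyte libraries, Klrb1a (mean 0.278 CPM) had a log2 change of 1.17. Klra3 (mean 0.417 CPM) had 0.77 and was not called. Klrg1 had 2.93, 2.22, 1.79 and 1.62 CPM in propranolol monocyte libraries, against 0.229, 0.217, 0.246 and 0.309 CPM in control monocyte libraries. The groups were far apart, and the log2 change was 3.07 ± 0.27 (SE, adjusted p = 1.29e-05). Klra7 had 1.88, 1.48, 1.67 and 1.20 CPM in propranolol monocyte libraries, against 0.400, 0.314, 0.148 and 0.227 CPM in control monocyte libraries. No values overlapped, and the log2 change was 2.52 ± 0.31 (SE, adjusted p = 0.000129). Klrb1c had 4.75, 6.02, 4.19 and 3.91 CPM in propranolol monocyte libraries, against 0.915, 0.652, 0.959 and 1.57 CPM in control monocyte libraries. Here too the propranolol values all lay above the control values, and the log2 change was 2.19 ± 0.25 (SE, adjusted p = 8.04e-05). Klra1 had 0.752, 0.537, 0.385 and 0.445 CPM in propranolol monocyte libraries, against 0.0572, 0.242, 0.0492 and 0.165 CPM in control monocyte libraries. The control values rest on few counts, and the log2 change was 1.98 ± 0.48 (SE, adjusted p = 0.00955).

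Klrc1 and Klrc2, the inhibitory and the activating chain that share CD94, rose side by side in these libraries. Klrc1 had 2.42, 2.22, 1.84 and 1.42 CPM in propranolol monocyte libraries, against 0.429, 0.628, 0.492 and 0.536 CPM in control monocyte libraries. Klrc2 had 2.26, 1.86, 1.62 and 1.93 CPM in propranolol monocyte libraries, against 0.400, 0.531, 0.664 and 0.577 CPM in control monocyte libraries. Both pairs of groups were apart, with log2 changes of 1.91 ± 0.24 for Klrc1 and 1.80 ± 0.22 for Klrc2 (SE, adjusted p = 0.000142 and 0.000119, edgeR). Klra4, Klra8, Klra9, Klre1 and Klri2 rose by log2 changes of 1.37 to 1.97. Klrk1 had 14.6, 14.3, 13.2 and 12.8 CPM in propranolol monocyte libraries, against 8.63, 7.92, 7.33 and 5.73 CPM in control monocyte libraries. Its groups were apart, and the log2 change was 0.89 ± 0.12 (SE, adjusted p = 0.000208). Klrd1 had 7.76, 7.77, 7.41 and 7.07 CPM in propranolol monocyte libraries, against 4.4, 5.51, 5.61 and 4.08 CPM in control monocyte libraries. The ranges did not meet, and the log2 change was 0.61 ± 0.12 (SE, adjusted p = 0.00265). Klrb1a was called higher at a log2 change of 1.17 ± 0.37 (SE, adjusted p = 0.0363), but 6 of the 8 fits that left out 1 library lost it.

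Klra2 had 35, 34.0, 38.2 and 39.8 CPM in propranolol monocyte libraries, against 26.6, 24.5, 21.4 and 21.7 CPM in control monocyte libraries. Its groups were apart at a high level, and the log2 change was 0.64 ± 0.08 (SE, adjusted p = 0.000172). Klrb1b had 9.51, 7.99, 8.87 and 8.4 CPM in propranolol monocyte libraries, against 10.2, 7.34, 7.06 and 7.38 CPM in control monocyte libraries. The groups overlapped, control library 1 held the highest value, and the log2 change was 0.12 ± 0.12 (SE, adjusted p = 0.481). Klri1 had 2.58, 1.97, 2.33 and 2.33 CPM in propranolol monocyte libraries, against 3.09, 3.14, 3.22 and 2.35 CPM in control monocyte libraries. The overlap came from control library 4, and the log2 change was −0.36 ± 0.15 (SE, adjusted p = 0.106). Klra17 had 0.618, 0.873, 0.812 and 0.489 CPM in propranolol monocyte libraries, against 0.858, 1.06, 1.16 and 0.927 CPM in control monocyte libraries. The ranges overlapped, and the log2 change was −0.52 ± 0.25 (SE, adjusted p = 0.148). Klrg2 had 2.31, 1.84, 2.54 and 2.85 CPM in propranolol monocyte libraries, against 3.63, 3.26, 3.86 and 4.12 CPM in control monocyte libraries. Every propranolol value was below every control value, and the log2 change was −0.64 ± 0.16 (SE, adjusted p = 0.0105). The remaining members without a call were Klrb1f (log2 change 0.83 ± 0.32, adjusted p = 0.0736) and Klra3 (0.77 ± 0.38, adjusted p = 0.151), and leaving out propranolol library 4 gave Klrb1f an adjusted p of 0.0218.

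NK cell markers moved with these changes in the monocyte libraries too. Of the 15 NK cell markers, 14 were higher and 1 (Itga2) was lower, with a median log2 change of 1.90, and they summed to 271 to 332 CPM in propranolol and 138 to 148 CPM in control libraries. Of all genes tested in these libraries, 14.3% were called higher and 16.1% lower. Prf1, which encodes perforin, averaged 18.5 CPM with propranolol and 4.05 CPM in controls, and the log2 change was 2.19 ± 0.13 (SE, adjusted p = 9.49e-07). All 8 B cell markers were higher and 1 of 10 T cell markers was called. Scaled on the NK cell markers, 8 members were higher and 6 were lower, against 77 and 16153 of all 18236 genes tested. The median of all tested genes moved to −1.04. Under that scaling Klrg1 (log2 change 1.98) and Klra7 (1.45) remained higher, whereas Klrd1 (−0.46), Klra2 (−0.42), Klrb1b (−0.94), Klri1 (−1.42), Klra17 (−1.59) and Klrg2 (−1.70) were lower. A sum of counts gives abundant markers the most weight. In control monocyte libraries these were Itga2 (52.2 CPM, TMM log2 change −0.42), Cd244a (21.6 CPM, 0.58) and S1pr5 (18.0 CPM, 1.18). All lay below the markers' median of 1.90. A member that rose like the median NK cell marker could therefore still be called higher under NK marker scaling.

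In the libraries labelled CD4 T cells the family did not move as a block. Of 26 members tested, 6 were higher with propranolol (Klrb1b, Klra2, Klrc1, Klra4, Klra1 and Klri2), 5 were lower (Klrc3, Klrb1a, Klrb1f, Klrc2 and Klrb1c) and 15 were not called. Among all 16550 genes tested in these libraries 30.1% were called higher, 29.9% lower and 60% in either direction, so the family's share of calls was not above the background. All 5 members that fell are activating receptors, out of 9 tested, and the other activating calls were Klra4 and Klri2, which rose. Of the 14 inhibitory members 4 rose and 0 fell in edgeR's test, with 0 lower at an unadjusted p under 0.05 as well. The nearest was Klrb1, which DESeq2 did not call (adjusted p = 0.0690) and limma-voom called lower (adjusted p = 0.0284, with 0.0255 to 0.185 over all alternatives). DESeq2 also called Klri1 higher (adjusted p = 0.0415), which edgeR did not. The median log2 change was −0.74 over the activating and 0.29 over the inhibitory members, and −0.04 over all genes tested.

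The Klrc and Klrb1 groups each held genes that moved in opposite directions. Klrc1 had 21.4, 30.2, 29.9 and 26.6 CPM in propranolol CD4 T cell libraries, against 9.67, 9.52, 10.6 and 9.64 CPM in control CD4 T cell libraries. The groups were far apart, and the log2 change was 1.45 ± 0.12 (SE, adjusted p = 1.07e-06). Klrc2 had 6.37, 6.24, 7.49 and 6.38 CPM in propranolol CD4 T cell libraries, against 9.92, 12.2, 11.7 and 13.1 CPM in control CD4 T cell libraries. All propranolol values were below the control values, and the log2 change was −0.83 ± 0.13 (SE, adjusted p = 0.000185). Klrc3, another activating chain of that group (NKG2E), had 0.537, 0.208, 0.204 and 0.196 CPM in propranolol CD4 T cell libraries, against 0.694, 1.43, 1.13 and 1.44 CPM in control CD4 T cell libraries. It was low throughout, without overlap, and the log2 change was −2.0 ± 0.47 (SE, adjusted p = 0.00344). Counts of Klrc2 divided by those of Klrc1 were 0.248 ± 0.037 in propranolol and 1.19 ± 0.16 in control libraries (SD, n = 4 each). The same ratio was 2.01 ± 0.60 in propranolol lungs and 1.43 ± 0.51 in control lungs (SD, n = 5 each), and 1.0 ± 0.24 in propranolol and 1.05 ± 0.22 in control monocyte libraries (SD, n = 4 each).

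Klrb1b had 13.4, 19.5, 17.0 and 15.9 CPM in propranolol CD4 T cell libraries, against 3.87, 4.31, 2.83 and 4.63 CPM in control CD4 T cell libraries. The lowest propranolol value was well above the highest control value, and the log2 change was 2.07 ± 0.18 (SE, adjusted p = 1.30e-06). Klrb1c had 9.89, 21.7, 14.2 and 14.5 CPM in propranolol CD4 T cell libraries, against 22.3, 26.4, 25.4 and 26.3 CPM in control CD4 T cell libraries. The propranolol values were lower and more scattered, with propranolol library 2 close to the controls, and the log2 change was −0.74 ± 0.19 (SE, adjusted p = 0.00543). Klrb1f had 2.66, 4.49, 3.30 and 3.83 CPM in propranolol CD4 T cell libraries, against 4.91, 6.50, 7.34 and 6.85 CPM in control CD4 T cell libraries. The ranges were apart, and the log2 change was −0.85 ± 0.20 (SE, adjusted p = 0.00325). Klrb1a had 0.430, 0.499, 0.715 and 0.687 CPM in propranolol CD4 T cell libraries, against 1.09, 1.26, 1.08 and 1.33 CPM in control CD4 T cell libraries. Again there was no overlap, and the log2 change was −1.03 ± 0.35 (SE, adjusted p = 0.0231), a call that was lost without control library 2, control library 4 or propranolol library 1 (adjusted p up to 0.0639) and without a filter on low counts (adjusted p = 0.0903). Counts of Klrb1c divided by those of Klrb1b were 0.899 ± 0.157 in propranolol and 6.63 ± 1.57 in control CD4 T cell libraries (SD, n = 4 each). In the monocyte libraries that ratio was 0.548 ± 0.138 with propranolol and 0.132 ± 0.058 in controls (SD, n = 4 each). In lung it was 1.07 ± 0.38 with propranolol and 0.986 ± 0.178 in controls (SD, n = 5 each), and the groups overlapped.

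**Figure D4:**
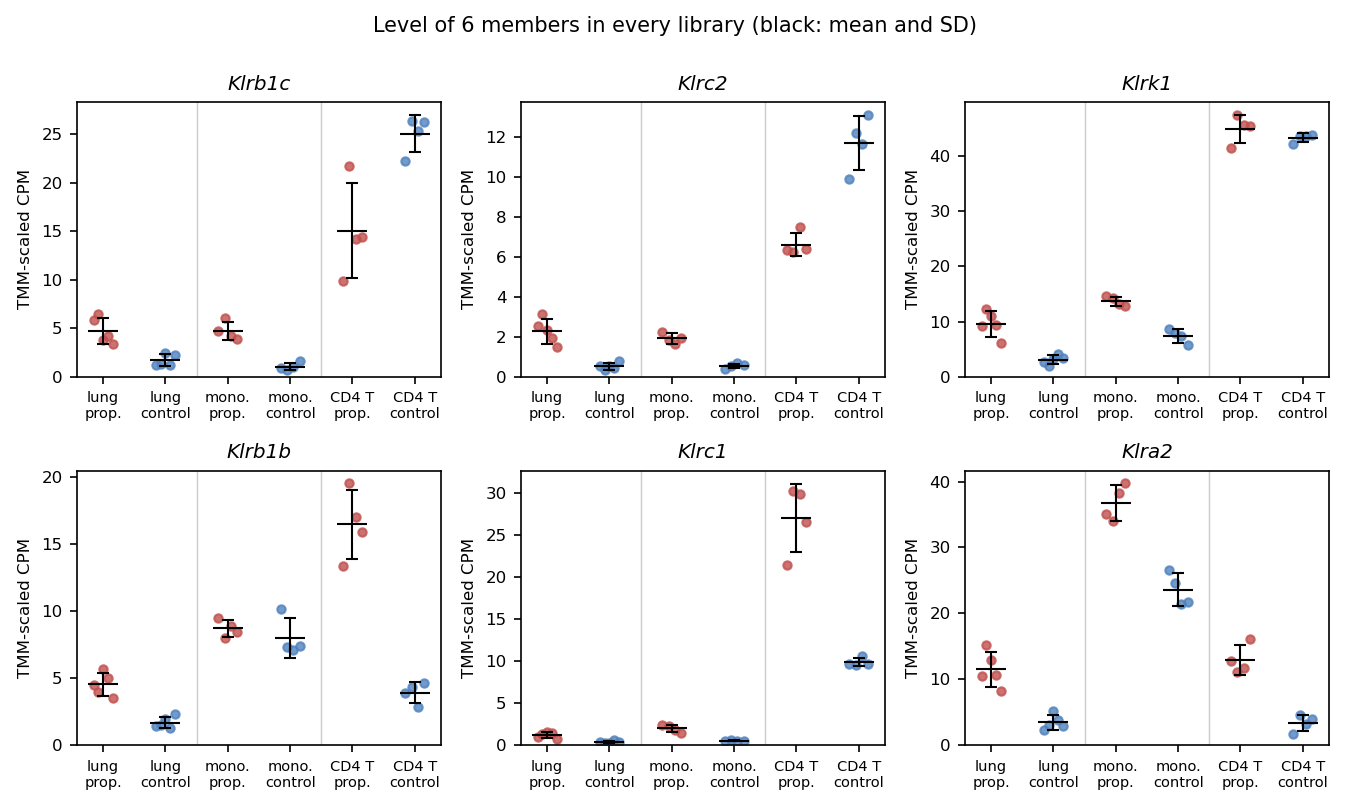
TMM-scaled CPM of 6 members in every library (points), with the mean and SD of each group in black, propranolol left of control for each kind of material. Scaling was done within a kind of material, so levels are to be compared within it. In the CD4 T cell libraries Klrb1c and Klrc2 are lower with propranolol, Klrb1b, Klrc1 and Klra2 are higher, and Klrk1 overlaps.

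Promoters of these genes are shown because Klrc1 and Klrc2, and Klrb1b and Klrb1c, lie close to each other in the NK gene complex of chromosome 6 and moved in opposite directions in the CD4 T cell libraries. Each is 300 bases, from 250 before to 50 after a transcript start, on the minus strand of GRCm38.p6, from RefSeq. Capitals mark matches, on either strand, to the RUNX motif TGTGGT and the AP-1 motif TGANTCA. The regions are chr6:129660507-129660806 for Klrc2, chr6:129678924-129679223 for Klrc1, chr6:128788592-128788891 for Klrb1c and chr6:128826266-128826565 for Klrb1b.
Klrc2: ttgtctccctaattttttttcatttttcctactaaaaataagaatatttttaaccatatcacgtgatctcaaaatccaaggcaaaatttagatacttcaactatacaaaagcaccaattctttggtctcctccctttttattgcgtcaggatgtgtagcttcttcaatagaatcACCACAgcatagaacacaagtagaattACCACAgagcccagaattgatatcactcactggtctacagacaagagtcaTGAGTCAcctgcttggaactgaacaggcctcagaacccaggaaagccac
Klrc1: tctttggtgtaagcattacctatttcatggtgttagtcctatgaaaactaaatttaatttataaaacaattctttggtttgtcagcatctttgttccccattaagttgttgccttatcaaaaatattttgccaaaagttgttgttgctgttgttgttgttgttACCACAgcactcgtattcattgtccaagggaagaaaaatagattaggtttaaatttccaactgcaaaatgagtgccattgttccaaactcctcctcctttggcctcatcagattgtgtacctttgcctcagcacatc
Klrb1c: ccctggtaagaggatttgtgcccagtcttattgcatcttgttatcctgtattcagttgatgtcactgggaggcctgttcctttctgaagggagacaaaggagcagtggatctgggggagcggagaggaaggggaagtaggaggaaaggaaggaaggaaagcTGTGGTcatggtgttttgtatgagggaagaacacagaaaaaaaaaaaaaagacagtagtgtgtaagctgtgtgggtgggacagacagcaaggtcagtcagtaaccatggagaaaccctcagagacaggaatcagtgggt
Klrb1b: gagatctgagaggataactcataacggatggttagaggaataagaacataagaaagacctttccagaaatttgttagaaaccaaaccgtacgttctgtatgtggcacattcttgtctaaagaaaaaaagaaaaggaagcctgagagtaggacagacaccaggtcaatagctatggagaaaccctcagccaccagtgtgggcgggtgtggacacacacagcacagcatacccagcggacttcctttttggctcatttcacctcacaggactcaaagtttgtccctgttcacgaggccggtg

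A global alignment of the Klrc2 and Klrc1 promoters had 71.1% identical bases in ungapped columns, and the longest run they shared was 12 bases. Klrc3, which fell like Klrc2, had 99.0% identical bases with this Klrc2 promoter and a shared run of 150 bases. The Klrb1c and Klrb1b promoters had 71.4% identical bases and a longest shared run of 16 bases, while Klrb1c and Klrb1a, which both fell, had 90.8%. Klrb1a and Klrb1b, which moved in opposite directions, had 80.5%. Klrb1f, which also fell, was not aligned. Its promoter, like that of Klrb1b, held no match to the RUNX or the AP-1 motif. The pairs aligned thus leave out a member that fell, and a link of promoter likeness with direction was not tested. The RUNX motif was found in 9 of the 28 promoter entries that covered 23 members, and in 16.8% of the 32851 promoters of all genes. The AP-1 motif was found in 5 of the 28 and in 7.81% of all. The 28 entries are not independent, since overlapping entries of Klrc2 were each counted. These and the nearly identical Klrc3 promoter all hold both motifs, so the counts do not describe separate sequences. The cyclic AMP response element TGACGTCA, the T-box motif AGGTGTGA and the core of the interferon-stimulated response element were in none of the 28, against 1.79%, 1.28% and 3.44% of all promoters. The half-site of the cyclic AMP response element, TGACG, which is also part of the full site, was in 4 of the 28 and in 20.8% of all. Both strands were searched, and a match of letters describes the sequence and is no measured site.

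The other called members in CD4 T cell libraries were Ly49 genes and Klri2. Klra2 had 12.8, 11.1, 11.6 and 16.1 CPM in propranolol CD4 T cell libraries, against 1.74, 4.56, 3.15 and 3.96 CPM in control CD4 T cell libraries. The groups did not overlap, and the log2 change was 1.92 ± 0.24 (SE, adjusted p = 3.73e-05). Klra4 had 3.41, 11.2, 7.46 and 6.6 CPM in propranolol CD4 T cell libraries, against 4.07, 4.06, 4.02 and 4.39 CPM in control CD4 T cell libraries. Propranolol library 1 was below all controls and library 2 was far above them, and the log2 change was 0.79 ± 0.29 (SE, adjusted p = 0.0336). The Klra4 call was lost in 7 of the 8 fits that left out 1 library, with adjusted p from 0.0518 to 0.0735, and kept without propranolol library 1. It was also lost with limma-voom (adjusted p = 0.124). Klra1 had 3.12, 3.7, 2.55 and 3.53 CPM in propranolol CD4 T cell libraries, against 1.19, 1.93, 1.82 and 2.49 CPM in control CD4 T cell libraries. The groups were just apart, the log2 change was 0.78 ± 0.26 (SE, adjusted p = 0.0213), and the call was lost without propranolol library 4 (adjusted p = 0.0554). Klri2 had 8.76, 12.9, 13.5 and 12.8 CPM in propranolol CD4 T cell libraries, against 5.35, 8.09, 8.4 and 9.05 CPM in control CD4 T cell libraries. Propranolol library 1 lay within the control range, and the log2 change was 0.62 ± 0.19 (SE, adjusted p = 0.0124).

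Klrk1 and Klrd1, both at high levels in these libraries, did not pass the test. Klrk1 had 41.4, 47.4, 45.7 and 45.4 CPM in propranolol CD4 T cell libraries, against 42.2, 43.7, 43.7 and 43.9 CPM in control CD4 T cell libraries. The ranges overlapped, and the log2 change was 0.05 ± 0.07 (SE, adjusted p = 0.542). Klrd1 had 20.3, 22.9, 19.6 and 24.5 CPM in propranolol CD4 T cell libraries, against 20.4, 21.7, 23.2 and 20.7 CPM in control CD4 T cell libraries. Its ranges overlapped as well, and the log2 change was 0.02 ± 0.10 (SE, adjusted p = 0.881). Klra6, an inhibitory Ly49 gene, had 1.24, 0.998, 2.45 and 1.37 CPM in propranolol CD4 T cell libraries, against 0.793, 1.01, 1.01 and 1.08 CPM in control CD4 T cell libraries. Propranolol library 3 was highest, and the log2 change was 0.63 ± 0.35 (SE, adjusted p = 0.14). The other members without a call included Klrg1 (log2 change 0.08 ± 0.14), Klra8 (0.11 ± 0.16), Klra7 (0.12 ± 0.20), Klra9 (0.03 ± 0.18) and Klre1 (0.17 ± 0.15). The widest intervals were those of Klrb1, at −1.95 ± 0.89 (SE, adjusted p = 0.0792), Klra10, at −1.15 ± 0.68 (SE, adjusted p = 0.168) and Klra5, at 0.37 ± 0.58 (SE, adjusted p = 0.608), which all averaged under 1 CPM. Leaving out propranolol library 3 gave Klrb1 an adjusted p of 0.0255.

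Markers of other cells differed between the arms of the CD4 T cell libraries. The 10 monocyte markers summed to 4400 to 5150 CPM in propranolol and 914 to 1038 CPM in control libraries, with 7 of 10 higher, and Cd14 averaged 76.5 CPM against 1.21 CPM in controls. The 7 neutrophil markers summed to 495 to 797 CPM and 97.1 to 137 CPM, and the 8 B cell markers to 524 to 673 CPM and 151 to 191 CPM, in propranolol and control libraries, and every one of these 15 was higher. Of the 6 regulatory T cell markers 5 were higher and Foxp3 was not called, at 102 CPM with propranolol and 93.7 CPM in controls. Cd8a averaged 13.9 CPM with propranolol and 3.99 CPM in controls. Of the 15 NK cell markers 9 were higher and 3 lower (Ncr1, S1pr5 and Itga2), with Ncr1 at 5.31 CPM with propranolol and 10.8 CPM in controls, and the log2 change was −1.03 ± 0.15 (SE, adjusted p = 0.000128). Of all genes tested in these libraries, 30.1% were called higher and 29.9% lower. Of 6 markers on the list for type 1 innate lymphoid cells, relatives of NK cells, 4 were lower (Zfp683, Tnfsf10, Tcf7 and Itga1), Cxcr6 was higher and Il7r was not called, and T cells express several of them too. They summed to 1109 to 1202 CPM with propranolol and 1475 to 1504 CPM in controls. Zfp683 averaged 2.99 CPM with propranolol and 16.6 CPM in controls, and its log2 change was −2.46 ± 0.19 (SE, adjusted p = 5.79e-07). The part of these cells in the members' changes was not tested.

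The changes of some members differed between kinds of material, tested as the difference of log2 changes in 1 fit over 4 groups. For monocyte libraries minus lung, 8 of 24 members tested differed, against 57.4% of all 20328 genes (25.2% with a positive and 32.3% with a negative difference), and the median difference over all genes was −0.17. The members' share was thus below that of all genes. Klrg1 had the larger change in monocyte libraries (difference 1.44 ± 0.42, SE, adjusted p = 0.00734). Klrb1b (−1.43 ± 0.25), Klrd1 (−1.44 ± 0.25), Klrk1 (−0.87 ± 0.28), Klri1 (−2.38 ± 0.33), Klra2 (−1.20 ± 0.27) and Klrg2 (−1.37 ± 0.29) had the smaller or opposite one, with adjusted p from 2.58e-05 to 0.0125. Klra10 (−2.95 ± 1.22, adjusted p = 0.0471) was also called but lost the call in 13 of the 18 fits without 1 library. It had too few counts to be tested in lung or in monocyte libraries alone. The call of Klrk1 was lost without lung control 1, monocyte control 1 or monocyte control 2 (adjusted p up to 0.0754).

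For CD4 T cell libraries minus lung, 17 of 26 members differed, all with the lower value in the CD4 T cell libraries, against 56.2% of all 20832 genes (24% with a positive and 32.2% with a negative difference) and a median difference of −0.26 over all genes. The share that differed in either direction is near the background. The activating genes Klrc3 (−4.77 ± 0.70), Klrc2 (−3.13 ± 0.32), Klrb1c (−2.38 ± 0.36), Klrb1f (−2.34 ± 0.33) and Klrb1a (−2.22 ± 0.56) were among the 17, with adjusted p of 0.00244 or less. So were Klrd1 (−2.09 ± 0.24, adjusted p = 8.99e-07), Klrk1 (−1.76 ± 0.26, adjusted p = 1.62e-05) and Klrg1 (−1.60 ± 0.35, adjusted p = 0.000796). Klrc3, Klrb1, Klra6 and Klra10, all among the 17, had too few counts to be tested in lung alone. Their control lung means were 0.0522, 0.0634, 0.0315 and 0.0199 CPM, so their differences rest on few lung counts. The inhibitory genes Klrb1b (0.46 ± 0.30, adjusted p = 0.194), Klrc1 (−0.33 ± 0.34, adjusted p = 0.438), Klra2 (0.03 ± 0.38, adjusted p = 0.988) and Klra1 (−0.67 ± 0.54, adjusted p = 0.309) had no called difference. The CD4 T cell libraries stand in a separate table, so a difference between materials cannot be told apart from one between tables.

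Across the 3 kinds of material, 20 members were tested in each, and 5 of them were higher in each (Klrc1, Klra2, Klra4, Klra1 and Klri2), a pattern shown by 2.35% of the 14595 genes tested in each. Among these calls, those of Klra4 in CD4 T cell libraries and of Klra1 in lung and in CD4 T cell libraries were lost in some fits without 1 library, as given above. A further 3, Klrb1c, Klrb1a and Klrc2, were higher in lung and in monocyte libraries and lower in CD4 T cell libraries, as were 1.74% of all genes, and the calls of Klrb1a were likewise lost in some fits. Klrb1b was higher in lung and in CD4 T cell libraries and not called in monocyte libraries. Klrg2 was higher in lung, lower in monocyte libraries and not called in CD4 T cell libraries. Another 7 members were higher in lung and monocyte libraries without a call in CD4 T cell libraries, against 1.53% of all genes.

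The summed counts of the 9 activating members were divided by those of the 14 inhibitory members in each library, as a description without a test. Counts are not per length, so the ratio serves only to compare libraries. In CD4 T cell libraries it was 1.13, 1.23, 1.12 and 1.07 in propranolol CD4 T cell libraries, against 2.41, 2.59, 2.54 and 2.48 in control CD4 T cell libraries. The propranolol ratios were all lower, without overlap. In monocyte libraries it was 0.583, 0.630, 0.504 and 0.480 in propranolol monocyte libraries, against 0.328, 0.333, 0.360 and 0.348 in control monocyte libraries. There the propranolol ratios were all higher. In lung it was 1.12, 1.25, 0.875, 0.975 and 0.997 in propranolol lungs, against 1.13, 0.975, 1.13, 1.02 and 1.20 in control lungs, and the ranges overlapped. Klra2, Klrb1b, Klri1 and Klra17, the inhibitory members with the highest mean levels per kb in control monocyte libraries, were then left out, a set chosen after the values were seen. They were also the tested inhibitory members with the lowest log2 changes there, at 0.64, 0.12, −0.36 and −0.52. How the monocyte ratio then moved follows in part from that choice. The monocyte ratio turned round, to 3.45 ± 0.39 in propranolol and 5.51 ± 1.39 in control libraries (SD, n = 4 each). The CD4 T cell ratio kept its direction, at 1.80 ± 0.09 in propranolol and 3.14 ± 0.22 in control libraries (SD, n = 4 each), and the lung ratios still overlapped.

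**Figure D5:**
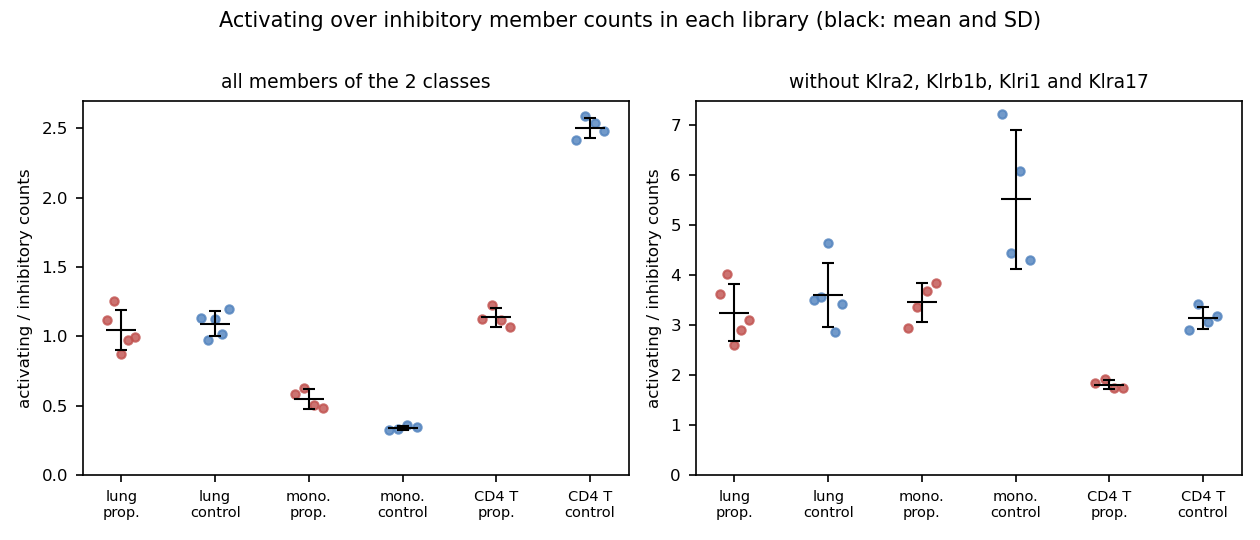
Summed counts of activating members over summed counts of inhibitory members in every library (points), with the mean and SD of each group in black, propranolol left of control. The left panel uses all members of both classes, the right one leaves out Klra2, Klrb1b, Klri1 and Klra17. In the CD4 T cell libraries the propranolol points lie below the control points in both panels, while in the monocyte libraries they lie above them on the left and below them on the right.

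The adaptors through which activating members signal were tested as a list of 4. In lung all 4 were higher with propranolol, as were 35.5% of all genes tested. Hcst, which encodes DAP10, the adaptor of NKG2D, had a log2 change of 1.41 ± 0.30 (SE, adjusted p = 0.00175), and Tyrobp, which encodes DAP12, had 0.76 ± 0.17 (SE, adjusted p = 0.00261). In monocyte libraries 3 were higher (14.3% of all genes), with Hcst at 0.95 ± 0.20 and Tyrobp at 0.28 ± 0.07 (SE, adjusted p = 0.00429 and 0.0156). In CD4 T cell libraries 3 were higher, against 30.1% of all genes. Tyrobp had 1.24 ± 0.13 and Fcer1g, the Fc receptor gamma chain, 1.30 ± 0.09 (SE, adjusted p = 8.59e-06 and 1.97e-07). Hcst was not called there (−0.18 ± 0.10, SE, adjusted p = 0.161). Both Tyrobp and Fcer1g are also abundant in myeloid cells, whose markers were higher in the propranolol CD4 T cell libraries.

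Of 19 listed ligand genes, 15 were found and 12 were tested in lung. There 7 were higher and 3 lower with propranolol, against 35.5% and 35.3% of all genes tested. The 3 that were lower encode ligands of NKG2D. Raet1d, a RAE-1 gene, averaged 1.03 CPM in propranolol and 3.58 CPM in control lungs, with a log2 change of −1.81 ± 0.56 (SE, adjusted p = 0.0134). Raet1e fell by 1.13 ± 0.27 and H60b fell by 0.98 ± 0.38 on the log2 scale (SE, adjusted p = 0.00362 and 0.0356). The lung groups of H60b overlapped. Ulbp1, the MULT1 gene, was not called (−0.17 ± 0.18, SE, adjusted p = 0.392). H60c, another NKG2D ligand gene, was not called either and had a positive value (0.38 ± 0.40, SE, adjusted p = 0.413). H2-T23, which encodes Qa-1, the ligand of the CD94-NKG2 pairs, averaged 214 CPM and 110 CPM in propranolol and control lungs, with a log2 change of 0.95 ± 0.16 (SE, adjusted p = 0.000419). Clec2d, whose protein binds the receptor of Klrb1b, had 0.94 ± 0.21 (SE, adjusted p = 0.00243), and Clec2i and Clec2g, ligands of Klrb1 group receptors, had 1.79 ± 0.20 and 2.17 ± 0.50 (SE, adjusted p = 8.13e-05 and 0.00275). The MHC class I genes H2-K1 (0.79 ± 0.12) and H2-D1 (0.58 ± 0.11) and the cadherin gene Cdh1 (0.48 ± 0.16) were higher as well, with adjusted p of 0.0201 or less.

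In monocyte libraries 5 of 11 tested ligand genes were higher (H60b, H2-T23, H2-K1, H2-D1 and Clec2i) and Clec2d and Cdh1 were lower. Of all genes tested there, 14.3% were called higher and 16.1% lower. Clec2i had a log2 change of 1.17 ± 0.13 and H60b of 1.20 ± 0.37 (SE, adjusted p = 6.06e-05 and 0.0315), and Clec2d had −0.17 ± 0.04 (SE, adjusted p = 0.00963). In CD4 T cell libraries H2-K1 (0.66 ± 0.05) and H2-D1 (0.73 ± 0.06) were higher and Ulbp1 (−0.34 ± 0.11) and Clec2i (−0.41 ± 0.09) were lower, of 10 tested (SE, adjusted p of 0.0198 or less). Of all genes tested in CD4 T cell libraries, 60% were called in either direction, so the share of ligand genes called was not above that. H2-T23 was not called there (0.11 ± 0.06, SE, adjusted p = 0.112).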

How the data were processed

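Polyadenylated RNA of 26 libraries was measured in 3 kinds of material. The authors deposited raw counts per gene, with lung and monocyte libraries in a table of their own and CD4 T cell libraries in a second file. All 26 columns matched a sample title. Per the submitters' processing notes, GRCm39 was the genome and STAR 2.7.9, Subread 2.0.3 and featureCounts were used. The sources used here do not say whether strand was used in counting. Among genes with 1 to 50 counts, 56.9% to 75.5% of values were even, with more genes at 2 counts than at 1, so a count is not necessarily an independent fragment, and floors cover counting error only.

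Symbols were found for 52083 genes (94.0%). Within each kind of material genes were kept by filterByExpr (minimum count 10), scaled by TMM and tested with edgeR 4.0.16 (quasi-likelihood, R 4.3.3). P-values were adjusted by Benjamini-Hochberg over all genes tested, with a threshold of 0.05. All adjusted p-values are from this test unless another is named. Differences between materials were tested as an interaction in 1 fit. Alternatives were the size factors and the test of DESeq2 1.42.0, voom of limma 3.58.1, no filter, a block on the replicate number, a filter at a mean of 1 CPM, scaling on NK cell or resident cell markers, a melanocyte covariate, and leaving out each library. In the lung and monocyte scalings on markers, each library was scaled on the summed counts of the list. No pair of libraries within a group agreed within sampling noise (44 pairs, lowest chi-square per degree of freedom 3.52). The scripts were tested on simulated data.

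Exon lengths, shared 50-base stretches and overlaps are from GENCODE M21 (GRCm38), and promoters from RefSeq. A gene's values are given per library if it was called in at least 1 comparison or averaged at least 1 CPM in a group. The members and lists were chosen with earlier results of these data known.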

Additional observations from a re-analysis of the deposited data

Results flagged for a closer look

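In 13 of 134 groups of members' values 1 library stood apart from the rest of its group, where chance gives about 6.7. In lung, propranolol library 2 had Klra4 at 4.02 CPM, against 1.81 to 2.0 CPM in the other 4. In control monocyte libraries, library 1 had Klrb1b at 10.2 CPM (others 7.06 to 7.38) and Klra4 at 0.943 CPM (others 0.640 to 0.676), library 2 had Klra3 at 0.676 CPM (others 0.320 to 0.343), and library 4 had Klri1 at 2.35 CPM (others 3.09 to 3.22). In propranolol CD4 T cell libraries, library 1 had Klrc3 at 0.537 CPM (others 0.196 to 0.208), Klri2 at 8.76 CPM (others 12.8 to 13.5) and Klra9 at 4.08 CPM (others 6.30 to 6.53), and library 3 had Klrc2 at 7.49 CPM (others 6.24 to 6.38). In control CD4 T cell libraries, library 1 had Klrk1 at 42.2 CPM (others 43.7 to 43.9), library 2 had Klri1 at 0.476 CPM (others 0.591 to 0.596), library 3 had Klrc1 at 10.6 CPM (others 9.52 to 9.67), and library 4 had Klra4 at 4.39 CPM (others 4.02 to 4.07).

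The propranolol change differed between kinds of material in 25 tests of the difference itself. For monocyte libraries minus lung the differences of log2 changes were 1.44 for Klrg1, −1.43 for Klrb1b, −1.44 for Klrd1, −0.87 for Klrk1, −2.38 for Klri1, −2.95 for Klra10, −1.20 for Klra2 and −1.37 for Klrg2. For CD4 T cell libraries minus lung they were −1.60 for Klrg1, −2.22 for Klrb1a, −3.69 for Klrb1, −2.38 for Klrb1c, −2.34 for Klrb1f, −1.91 for Klre1, −2.09 for Klrd1, −1.76 for Klrk1 and −4.77 for Klrc3. The others were −3.13 for Klrc2, −0.91 for Klri2, −2.40 for Klra6, −1.85 for Klra8, −1.89 for Klra9, −1.95 for Klra7, −4.75 for Klra10 and −1.62 for Klra3. The Klri2 difference was lost in 7 of the 18 fits without 1 library, with adjusted p up to 0.0647. Klrc3, Klrb1, Klra6 and Klra10 had too few counts to be tested in lung alone, so their differences rest on few lung counts.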

How the results depend on the processing

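Among counts of called genes and members under settings other than leaving out a library, 13 moved by more than 1.5 times and 107 did not, and none of the 248 that left out 1 library did; the cause was not tested beyond what each setting does. In lung, requiring a mean of at least 1 CPM left 13 members called, all higher; NK marker scaling left 3 (2 higher, 1 lower) and the melanocyte covariate 4, all higher, of 1990 genes in all. In monocyte libraries NK marker scaling called 16230 genes, with 8 members higher and 6 lower, and in CD4 T cell libraries the 1 CPM filter left 3 members lower, since Klrc3 and Klrb1a average less. The calls over all genes split as 6614 higher and 6575 lower in lung, against 459 and 13955 with NK marker scaling and 1792 and 10827 with resident cell scaling, and as 2614 and 2939 in monocyte libraries, against 77 and 16153 with NK marker scaling. Without a filter Klrb1a and Klra1 lost their lung calls (adjusted p = 0.109 and 0.0689; 0.739 and 0.958 at most over all alternatives).

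Signs turned under NK marker scaling in lung for Klrb1a (−0.25), Klrb1f (−0.034), Klra1 (−0.026) and Klrg2 (−0.82), and in monocyte libraries for Klrb1b (−0.94), Klrb1f (−0.26), Klrd1 (−0.46), Klrk1 (−0.18), Klra3 (−0.32) and Klra2 (−0.42). Klrg2 in lung turned to −0.21 with resident cell scaling and −0.0025 with the melanocyte covariate. Uncalled values near 0 also turned: in CD4 T cell libraries Klra17 (−0.0077) and Klra9 (−0.031) with limma-voom and Klrd1 (−0.012) with the 1 CPM filter, and with that filter the differences from lung of Klra8 in monocyte libraries (0.022) and of Klra2 in CD4 T cell libraries (−0.079).

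Leaving out 1 library at a time gave log2 changes of −0.039 to 0.069 for Klrd1 and −0.019 to 0.17 for Klra9 in CD4 T cell libraries. For the difference of monocyte libraries from lung it gave −0.22 to 0.21 for Klra8, −0.77 to 2.41 for Klrc3, −0.21 to 0.16 for Klri2 and −0.16 to 0.45 for Klrb1a, and for CD4 T cell libraries −0.18 to 0.23 for Klra2. Members called ran from 19 to 21 in lung, 15 to 17 in monocyte libraries and 9 to 11 in CD4 T cell libraries.

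Same-numbered libraries deviated together in no kind of material throughout (correlations −0.08 to 0.49 in lung, −0.43 to −0.21 in monocyte and −0.03 to 0.03 in CD4 T cell libraries), so the numbers are not taken as pairs. With the replicate block, 3544 genes were called in monocyte libraries, against 5553 without it. The block moved the adjusted p past the threshold for Klrb1a in lung (0.0643), monocyte (0.101) and CD4 T cell libraries (0.0607), Klra1 in lung (0.0738), Klra4 in CD4 T cell libraries (0.0535) and the monocyte difference of Klra10 (0.125), and called Klrb1 lower in CD4 T cell libraries (log2 change −2.49, adjusted p = 0.0391) and the CD4 T cell difference of Klrg2 (−1.18, 0.0170). Without a filter Klrb1a also lost its calls in monocyte (0.0578) and CD4 T cell libraries (0.0903). Several members below 1 CPM were called, but Klrb1, Klra10, Klra5 and Klrg2 had standard errors above 0.5 in CD4 T cell libraries, so smaller changes of these may not be detectable at this depth.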

Other observations

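The pseudogenes with Klr symbols that were left out of the family had values of their own. Klra13-ps averaged 3.10 ± 0.51 CPM in propranolol and 0.451 ± 0.112 CPM in control lungs (SD, n = 5 each), and its log2 change was 2.77 ± 0.22 (SE, edgeR adjusted p = 3.50e-05). In monocyte libraries it averaged 2.28 ± 0.61 CPM with propranolol and 0.919 ± 0.188 CPM in controls (SD, n = 4 each), a log2 change of 1.31 ± 0.25 (SE, adjusted p = 0.00279, edgeR). In CD4 T cell libraries it averaged 4.72 ± 1.42 CPM with propranolol and 7.66 ± 0.87 CPM in controls (SD, n = 4 each), a log2 change of −0.69 ± 0.22 (SE, adjusted p = 0.0185, edgeR). Klra14-ps moved in the same directions, with log2 changes of 2.31 ± 0.50 in lung, 2.13 ± 0.48 in monocyte libraries and −1.07 ± 0.29 in CD4 T cell libraries (SE, adjusted p = 0.00189, 0.00639 and 0.00708, edgeR). Klra8, the Ly49H gene, shares 33.1% of its 50-base stretches with other genes, most of them with Klra14-ps, and was not called in CD4 T cell libraries. Klra7, which shares 12.3% and most with Klra13-ps, was not called there either. Klra11-ps and Klrb1-ps1 had no more than 0.0863 CPM in any library.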
